A study of Mus musculus with 2 samples.

Results

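The genes described here are 8 genes known from alveolar type 1 cells (Ager, Aqp5, Hopx, Akap5, Rtkn2, Clic5, Emp2 and Pdpn) and the caveolin genes Cav1 and Cav2. They were taken by name, 10 of 43346 Ensembl genes, from whole lungs of mouse embryos at day 15.5, whose total RNA was sequenced. The series holds 1 group of 2 libraries from B6NCrl embryos of mixed sex. Replicate 1 came from 78 pooled embryos and replicate 2 from 62 pooled embryos, with no treatment named in the labels, so there is no comparison of conditions and no test. Each pool has a single library, so pool, dissection, extraction and library preparation cannot be told apart.

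Alveolar type 1 cells are the thin, flat epithelial cells across which gas passes to the blood, and their thinness depends on a spread-out membrane and cytoskeleton. They arise from distal epithelial progenitors late in gestation, when the tips of the airway tree open into sacs. Caveolae are small pits of the plasma membrane, built by caveolins and cavins. They are abundant both in type 1 cells and in endothelial cells, and caveolin genes are also expressed in fibroblasts and smooth muscle. In whole lung RNA, fewer cells of a type and less RNA per cell cannot be told apart.

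Cav1 and Hopx each have start sites that RefSeq and GENCODE place apart, with deposited levels for the transcripts of each. The windows below run from 250 bases before to 50 bases after each start (RefSeq, GRCm38.p6). The Cav1 and Hopx windows are shown because these genes differ in which start's transcripts held most of the estimated level. Ager is shown because it had the highest level among the type 1 cell genes. Capitals mark GGGCGG or its reverse complement, the core of the GC box. The Cav1 windows are chr6:17306085-17306384 and chr6:17307390-17307689 on the plus strand, the Hopx windows chr5:77115074-77115373 and chr5:77095218-77095517 on the minus strand, and the Ager window chr17:34597600-34597899 on the plus strand.
Cav1 upstream start: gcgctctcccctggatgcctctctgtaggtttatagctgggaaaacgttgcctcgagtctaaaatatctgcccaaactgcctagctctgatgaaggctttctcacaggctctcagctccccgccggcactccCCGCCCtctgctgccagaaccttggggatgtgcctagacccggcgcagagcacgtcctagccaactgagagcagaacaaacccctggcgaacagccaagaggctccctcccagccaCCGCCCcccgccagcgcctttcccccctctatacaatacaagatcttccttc
Cav1 downstream start: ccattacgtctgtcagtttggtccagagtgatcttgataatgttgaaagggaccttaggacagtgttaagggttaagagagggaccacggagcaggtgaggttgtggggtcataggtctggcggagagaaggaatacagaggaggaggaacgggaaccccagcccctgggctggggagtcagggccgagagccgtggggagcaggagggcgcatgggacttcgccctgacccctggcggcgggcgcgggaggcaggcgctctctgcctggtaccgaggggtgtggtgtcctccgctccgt
Hopx upstream start: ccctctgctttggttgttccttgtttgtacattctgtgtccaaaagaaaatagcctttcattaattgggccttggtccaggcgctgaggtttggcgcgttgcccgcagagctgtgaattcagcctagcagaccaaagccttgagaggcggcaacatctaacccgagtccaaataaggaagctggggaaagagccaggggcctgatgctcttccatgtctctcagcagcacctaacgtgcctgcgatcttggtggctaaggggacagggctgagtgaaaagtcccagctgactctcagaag
Hopx downstream start: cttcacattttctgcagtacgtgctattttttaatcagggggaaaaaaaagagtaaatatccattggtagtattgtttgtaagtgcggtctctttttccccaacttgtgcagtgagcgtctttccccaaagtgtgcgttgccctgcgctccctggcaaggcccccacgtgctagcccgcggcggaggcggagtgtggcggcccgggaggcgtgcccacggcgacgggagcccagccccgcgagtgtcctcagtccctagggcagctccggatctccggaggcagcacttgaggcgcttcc
Ager start: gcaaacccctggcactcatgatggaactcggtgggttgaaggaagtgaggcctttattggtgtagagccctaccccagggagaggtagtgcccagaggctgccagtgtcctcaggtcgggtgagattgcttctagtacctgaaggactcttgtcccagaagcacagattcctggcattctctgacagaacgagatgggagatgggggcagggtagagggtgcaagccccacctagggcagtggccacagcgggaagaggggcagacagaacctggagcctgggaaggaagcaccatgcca

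Levels are in TPM, each transcript's share of the library corrected for its length, so genes can be set side by side. With a minimum of 1 TPM in both libraries, 9 of the 10 genes were detected, against 33.6% of all Ensembl genes. Cav1 stood above 97.6% of the detected genes, Ager above 94.3%, Cav2 above 84.5% and Emp2 above 83.7%. Hopx stood above 26.4% of them, and Aqp5 did not reach the minimum in replicate 2. The median over the 10 genes was 33.6 TPM in replicate 1 and 29.5 TPM in replicate 2 (31.6 ± 2.92, SD, n = 2), beside 17.65 and 16.72 TPM for all detected genes. Cav1 alone held 49.0% and 49.2% of their summed TPM.

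Ager encodes RAGE, a receptor of the immunoglobulin superfamily found at the basal membrane of type 1 cells. It had 209.61 TPM in replicate 1 and 165.12 TPM in replicate 2 (187 ± 31.5, SD, n = 2; ENSMUSG00000015452.10, chromosome 17, 34597862 to 34600936, plus strand, GRCm38). Replicate 1 was higher, and the deposited intervals, 200.8 to 210.3 and 157.4 to 166.2 TPM, did not overlap. These intervals, whose level is not stated in the sources used here, describe counting and read assignment and not the spread between pools.

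Among the type 1 cell genes, Emp2, a tetraspan membrane protein of the PMP22 family, had the highest level after Ager. It had 78.07 TPM in replicate 1 and 65.50 TPM in replicate 2 (71.8 ± 8.89; chromosome 16, 10281749 to 10313968, minus strand). Pdpn, the mucin-type glycoprotein podoplanin, had 43.11 and 39.56 TPM (41.3 ± 2.51; chromosome 4, 143267431 to 143299564, minus strand). The Emp2 libraries differed beyond their intervals, and those of Pdpn overlapped. Clic5, a chloride intracellular channel protein tied to the actin cortex, had 10.89 TPM in replicate 1 and 8.27 TPM in replicate 2 (9.58 ± 1.85; chromosome 17, 44188584 to 44280172, plus strand), with separate intervals.

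Aqp5, the water channel of the apical membrane of type 1 cells, was the lowest of the 10 genes. It had 48 estimated reads in replicate 1 and 31 in replicate 2, or 0.82 and 0.58 FPKM, the deposited fragments per length and library size. Its mean level was 1.06 ± 0.269 TPM (SD, n = 2; chromosome 15, 99590782 to 99594829, plus strand). Its TPM intervals, 0.944 to 1.66 and 0.617 to 1.24 TPM, overlapped. Ager stood 168-fold and 190-fold above it in TPM in the libraries.

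The regulatory and scaffold genes lay between these. Akap5, which anchors protein kinase A and calcineurin near the membrane, had 24.18 TPM in replicate 1 and 19.48 TPM in replicate 2 (21.8 ± 3.32; chromosome 12, 76324891 to 76334153, plus strand). Rtkn2 had 13.52 and 12.57 TPM (13.0 ± 0.672; chromosome 10, 67979570 to 68059740, plus strand). Hopx, an atypical homeodomain protein that does not bind DNA and is also expressed in heart muscle, had 6.66 and 5.38 TPM (6.02 ± 0.905; chromosome 5, 77086988 to 77115121, minus strand). Akap5 differed between the libraries beyond its intervals, while Rtkn2 and Hopx did not.

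The caveolins are the membrane-inserted coat proteins of caveolae, and CAV2 needs CAV1 to reach the cell surface. Cav1 had 446.37 TPM in replicate 1 and 378.55 TPM in replicate 2 (412 ± 48.0; chromosome 6, 17306335 to 17341452, plus strand). Cav2 had 77.02 and 73.70 TPM (75.4 ± 2.35; chromosome 6, 17281185 to 17289115, plus strand). The genes are neighbours on the same strand, with 17219 nt between the end of Cav2 and the start of Cav1. Cav1 exceeded Cav2 5.80-fold and 5.14-fold, and the intervals of the genes overlapped in neither library.

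**Figure D1:**
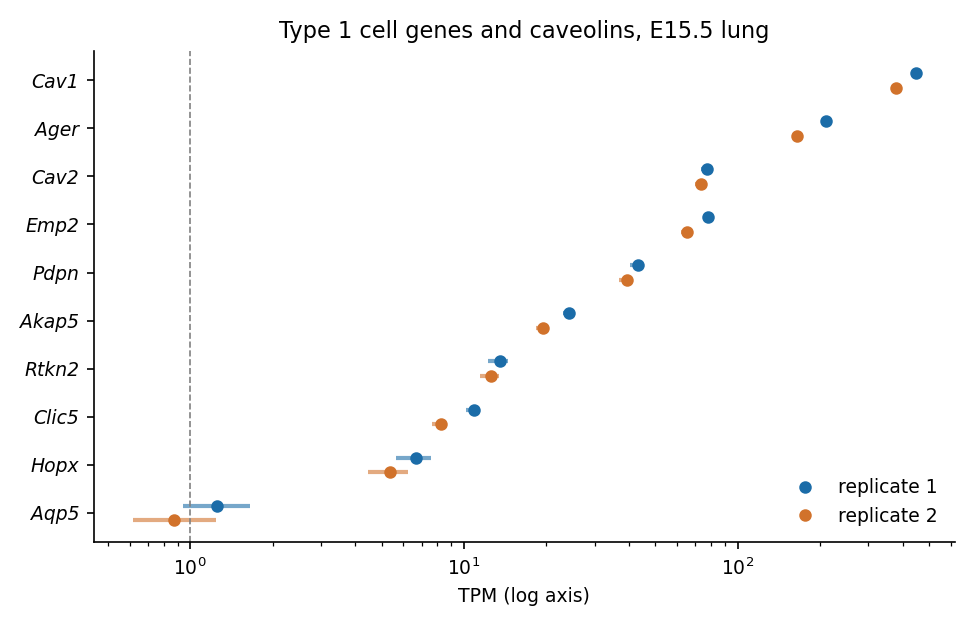
TPM (log axis) of the 10 genes in replicate 1 (blue) and replicate 2 (orange), with the deposited TPM interval of each library as a bar and the 1 TPM minimum as a dashed line. The points run from Cav1 at 446.37 and 378.55 TPM down to Aqp5 at a mean of 1.06 TPM.

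In the order Cav1, Ager, Cav2, Emp2, Pdpn, Akap5, Rtkn2, Clic5, Hopx, Aqp5, each neighbouring pair kept its order with separate intervals in both libraries, except for Cav2 and Emp2. Cav2 was below Emp2 in replicate 1, with overlapping intervals, and above it in replicate 2, with separate intervals. The libraries thus differ on this pair, and its order is not settled.

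Between the replicates, all 10 genes had the higher deposited TPM in replicate 1, as did 69.8% of the 15152 genes that averaged at least 1 TPM. Scaling by trimmed mean of M values (TMM) shifted the log2 ratio of replicate 1 over replicate 2 by -0.07. After it, 9 of 10 were higher in replicate 1, against 48.5% of all these genes, and Cav2 had a log2 ratio of -0.01. The scaled log2 ratio was 0.45 for Aqp5, 0.33 for Clic5, 0.27 for Ager, 0.24 for Akap5 and 0.24 for Hopx. It was 0.18 for Emp2, 0.17 for Cav1, 0.05 for Pdpn and 0.03 for Rtkn2. The median was 0.21, beside -0.0050 over all genes.

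With a call of 1.5-fold and separate intervals, 0 of the 10 genes were apart, against 1.76% of all genes in either direction and 1.22% toward replicate 1. No p-value stands behind this call. Separate intervals at any fold, a rule chosen after the data were seen, held for Ager, Akap5, Clic5, Emp2 and Cav1, against 11.8% of all genes. All 5 were higher in replicate 1, a direction that 4.54% of all genes took under the same rule. Genes with many reads meet this rule more easily, so the share over all genes is not a like background. Under it, 8 of 9 type 2 cell genes (1 lower) and 5 of 7 mesothelial genes (0 lower) were also higher in replicate 1. Among 18 further genes known from type 1 cells, 3 were higher and 2 lower. The 12 general epithelial genes had 3 higher and 4 lower. Of 6 smooth muscle genes, 5 were lower in replicate 1 and 0 higher.

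**Figure D2:**
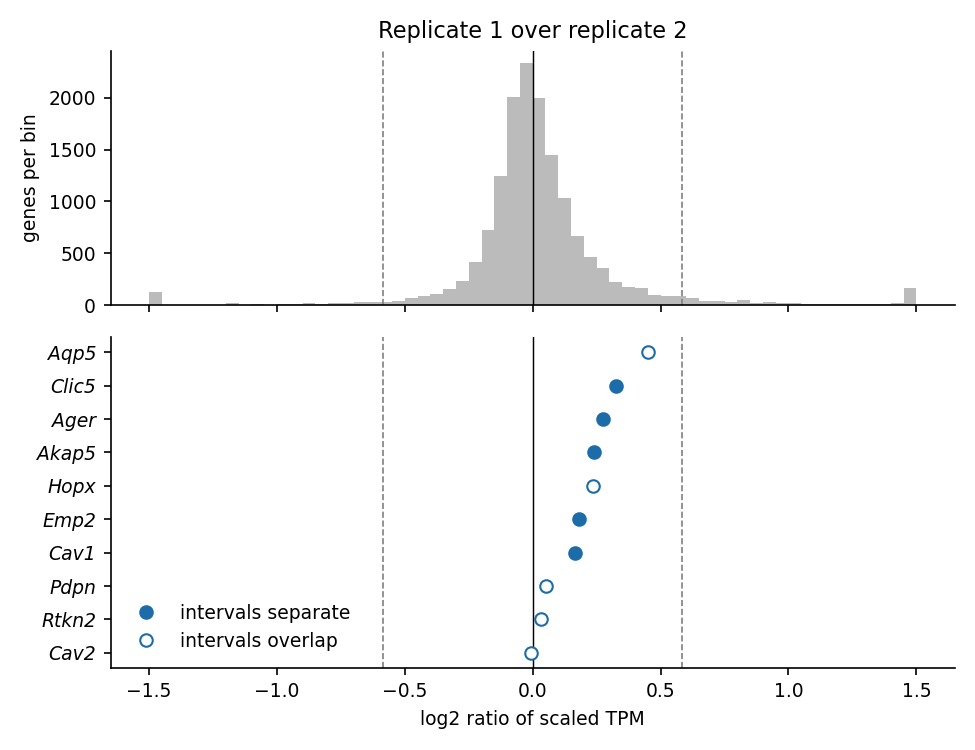
Log2 ratio of TMM-scaled TPM, replicate 1 over replicate 2: above, the number of genes per bin among 15152 genes, with values beyond the axis gathered in the end bins; below, the 10 genes, filled where the intervals were separate. The dashed lines mark 1.5-fold, and the 10 genes lie between -0.01 and 0.45.

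Lung identity genes were present in both libraries, with Nkx2-1 of the epithelium at 74.10 and 71.04 TPM and Tbx4 of the mesenchyme at 66.69 and 68.28 TPM. Libraries that share a tissue can differ in the cells they hold, so lists of other cell types were set beside these genes. Type 2 cell genes, the surfactant-producing cells of the alveolus, had a median log2 ratio of 0.30, with 8 of 9 higher in replicate 1. Their summed level was 7353 TPM in replicate 1 and 6259 TPM in replicate 2, mostly from Sftpc at 6881.12 and 5863.6 TPM. In that list Slc34a2, a phosphate transporter, was called apart at 16.66 and 9.89 TPM. The type 1 cell genes had a median of 0.24, and general epithelial genes had one of -0.0037 with 6 of 12 higher in replicate 1. Mesothelial genes had a median of 0.25, with 7 of 7 higher in replicate 1 and sums of 109 and 86.3 TPM. The part of any of these lists in the values of the 10 genes was not tested.

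Blood endothelial genes had a median log2 ratio of 0.03, with sums of 932 TPM in replicate 1 and 897 TPM in replicate 2. Smooth muscle genes had a median of -0.24, with 0 of 6 higher in replicate 1, and mesenchymal genes one of 0.01 with 7 of 10. Lymphatic endothelial genes, cells in which Pdpn is also expressed, had a median of 0.13 with 3 of 5 higher in replicate 1. The squamous and basal epithelial list summed to 39.3 TPM in replicate 1 and 13.0 TPM in replicate 2, with a median of 1.00. Its highest gene, Bpifa1, had 15.43 and 1.82 TPM and was called apart. Genes of neighbouring organs also differed. The thymus list summed to 62.2 and 14.7 TPM, the liver list to 32.8 and 152 TPM, and the heart muscle list to 1141 and 739 TPM. Of the heart genes, Myl7, an atrial myosin light chain, had 608.63 TPM in replicate 1 and 228.41 TPM in replicate 2, while Myl2, its ventricular counterpart, had 25.76 and 119.37 TPM. None of the markers in the heart, liver or thymus lists was listed at 0 in either library, and their part in the level of Hopx was not tested.

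**Figure D3:**
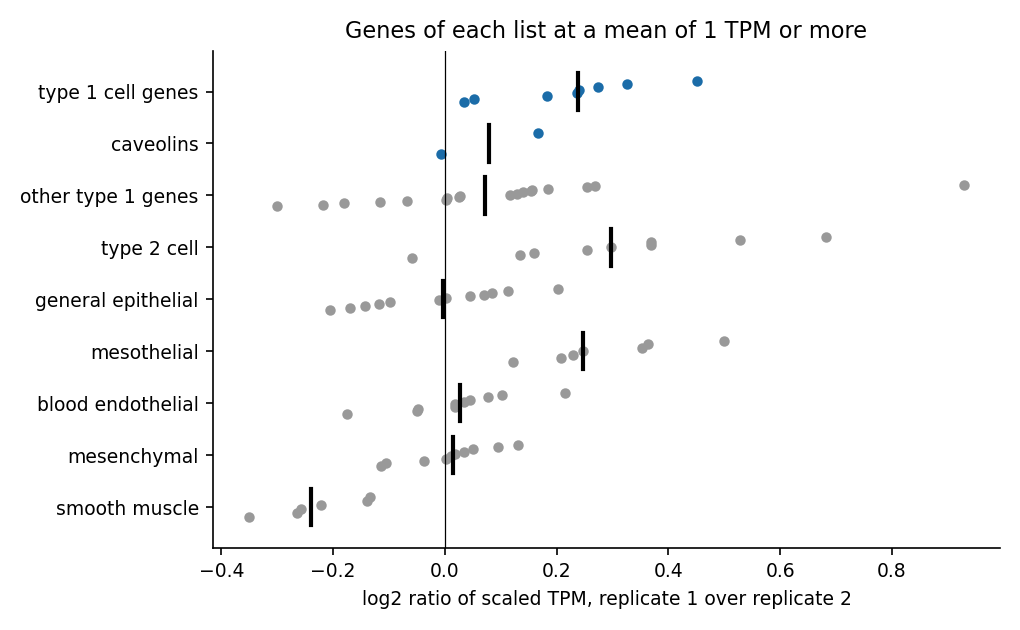
Log2 ratio of TMM-scaled TPM, replicate 1 over replicate 2, for each gene at a mean of 1 TPM or more in 9 lists; the black bar is the list's median. The type 1 cell genes lie above 0 with a median of 0.24, and the other type 1 genes have a median of 0.07. The type 2 list has a median of 0.30, and the smooth muscle list has a median of -0.24.

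Of 20 other genes known from type 1 cells, 18 were detected, with a median of 17.0 ± 0.824 TPM. Igfbp2, a secreted binder of insulin-like growth factors, had 290.54 TPM in replicate 1 and 299.67 TPM in replicate 2, and Cldn18, a tight junction claudin, had 276.17 and 258.32 TPM. Bdnf and Cyp2b10 stayed under 1 TPM in both libraries. The median log2 ratio was 0.07, and Spock2, a matrix proteoglycan, was called apart at 3.74 and 1.87 TPM. Among type 2 cell genes, Sftpc, surfactant protein C, stood 32.8-fold and 35.5-fold above Ager, whereas Ager stood 2.67-fold and 2.71-fold above Sftpb, surfactant protein B.

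The caveola list gives the partners of Cav1 and Cav2. Cavin1, the cavin needed to form caveolae, was the highest at 358.99 TPM in replicate 1 and 328.92 TPM in replicate 2, and Cavin3 followed at 146.09 and 149.09 TPM. Cav1 was 1.24-fold and 1.15-fold above Cavin1, with separate intervals in both libraries. Cavin4 and Cav3, which are muscle genes, were low, at 0.72 and 0.96 TPM for Cavin4 and 3.17 and 2.91 TPM for Cav3. Cav1 exceeded the endothelial gene Pecam1 4.50-fold and 4.13-fold, while Cav2 stood at 0.776 and 0.804 of it.

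Within their families, several of the type 1 cell genes were not the leading member. Clic5 was the lowest of 5 chloride intracellular channel genes, with Clic1 at 254.68 TPM in replicate 1 and 237.91 TPM in replicate 2 and Clic4 at 156.2 and 151.68 TPM. Rtkn2 stood at 0.401 and 0.423 of its relative Rtkn. Emp2 stood at 0.354 and 0.328 of Pmp22 and was not separated from Emp1. Of 12 aquaporins 4 were detected, a share near the 33.6% of all Ensembl genes. Aqp1, an endothelial water channel, led them at 48.93 and 40.91 TPM, and Aqp11 was called apart at 5.50 and 3.22 TPM.

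Binding partners were present at varied levels. All 9 AKAP5 partners were detected, with Prkaca, the catalytic subunit of protein kinase A, highest at 130.64 TPM in replicate 1 and 130.11 TPM in replicate 2. All 5 HOPX partners were detected, with the deacetylase gene Hdac2 at 183.09 and 173.65 TPM and Srf, the serum response factor, at 4.63 and 4.97 TPM. Of 6 RAGE ligands 5 were detected, with Hmgb1 at 1269.88 and 1287.28 TPM, S100a11 at 1036.17 and 1065.79 TPM and S100b at 0.57 and 0.50 TPM. All 6 podoplanin partners were detected, Cd9 at 211.00 and 189.11 TPM being the highest.

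The 10 genes had 44 annotated transcripts, of which 25 reached a mean of 1 TPM. In Ager, 2 coding transcripts held most of the level. Their coding parts differ by exon 9 of 11, a cassette of 27 nt at chr17:34600351-34600377. The lines below were cut from the GENCODE M21 transcript sequences. They show the exon in capitals with 30 nt on each side, present in Ager-201 and absent from Ager-209.
Ager-201: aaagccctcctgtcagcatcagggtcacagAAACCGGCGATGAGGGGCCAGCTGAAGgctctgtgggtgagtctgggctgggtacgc
Ager-209: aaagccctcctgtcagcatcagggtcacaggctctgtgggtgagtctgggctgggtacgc

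Ager-201, of 402 codons, had 125.19 TPM in replicate 1 and 106.37 TPM in replicate 2, or 59.72% and 64.42% of the gene. Ager-209, of 393 codons, had 58.68 and 36.86 TPM, or 28.00% and 22.33%. The intervals of Ager-209, 49.3 to 65.3 and 29.1 to 43.3 TPM, were separate. It was the only one of the 25 transcripts called apart at 1.5-fold, against 1.53% of all transcripts. Its scaled ratio of replicate 1 over replicate 2 was 1.52, just over that minimum, beside 1.21 for the whole gene. Of the 2 forms together, the one with the exon held 68.1% and 74.3%. Transcripts with a retained intron held 11.1% and 9.88% of Ager, chiefly Ager-202 at 8.18% and 7.51%.

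In Cav1, transcripts from the upstream start held 86.75% of the level in replicate 1 and 87.06% in replicate 2. Transcripts from the start 1305 nt downstream held 12.87% and 12.74%. The main form of the upstream start, Cav1-201 of 178 codons, had 81.10% and 81.23%. Cav1-202, the main form of the downstream start, had 11.57% and 11.95%, and its annotated protein is 31 codons shorter. These shares moved by less than 1 percentage point between the pools. They are estimates for whole transcripts, and reads at the first exons were not counted apart. Cav1-202 also ends further downstream than Cav1-201, at 35117 against 34989 nt from the upstream start. In Hopx the pattern was turned round, with 98.60% and 98.32% from the downstream start, chiefly Hopx-202, and 0.09 TPM in each library from the start 19844 nt upstream. All 3 Hopx transcripts encode the same number of codons, 73.

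**Figure D4:**
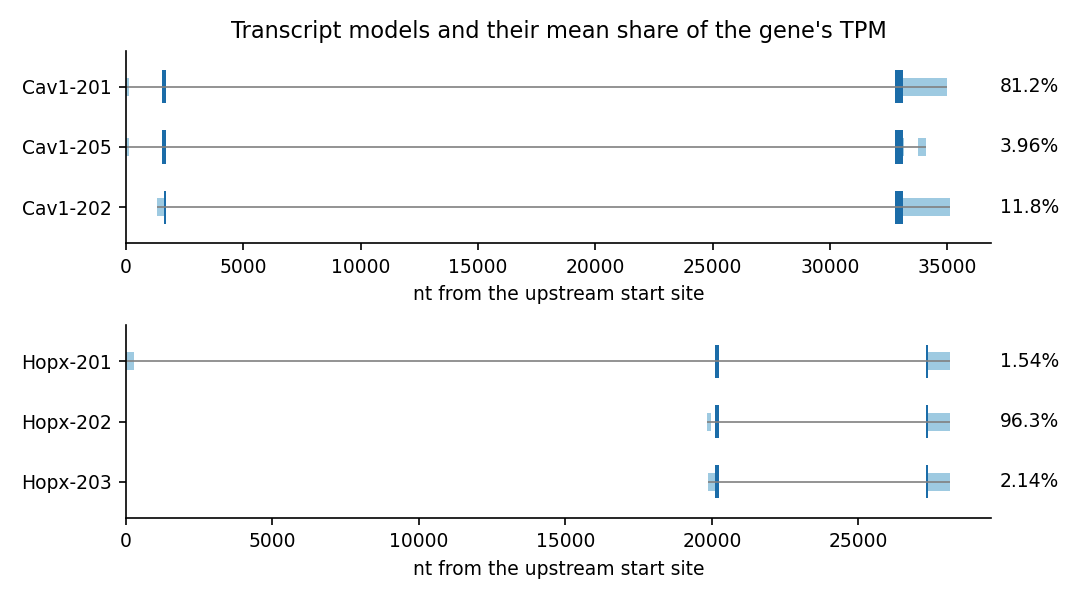
Exons (light) and coding parts (dark) of 3 Cav1 and 3 Hopx transcripts by distance in nt from the upstream start, with each transcript's mean percent of the gene's TPM at the right. Cav1-201, from the upstream start, held 81.2% of Cav1, and Hopx-202, from the downstream start, held 96.3% of Hopx.

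In Akap5 the division between the main transcripts could not be read. Akap5-201 had 46.38% in replicate 1 and 75.31% in replicate 2, and Akap5-202 had 48.17% and 19.35%, but their lengths differ by 2 nt and their intervals overlapped widely. Together they held 94.55% and 94.66%. In Rtkn2, Rtkn2-203 had 57.65% and 64.18% and Rtkn2-204 had 27.56% and 27.24%. Cav2-201 held 94.75% and 94.52% of Cav2, and Pdpn-201 held 99.20% and 98.35% of Pdpn. Clic5 and Emp2 each had a single transcript in the tables.

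**Figure D5:**
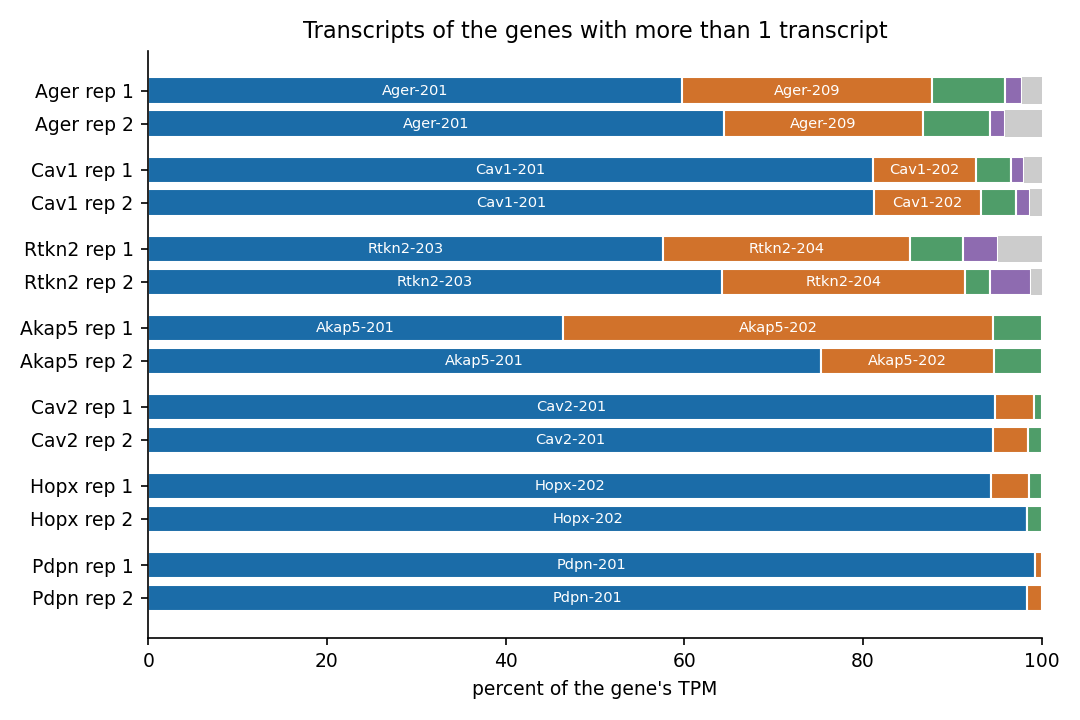
Percent of each gene's TPM held by its transcripts, in replicate 1 and replicate 2, for 7 genes; the 4 leading transcripts are coloured by rank and the rest are grey. Cav1-201 keeps 81.10% and 81.23%, while Akap5-201 has 46.38% and 75.31%.

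RefSeq start windows were found for 9 of the 10 genes, 11 windows in all. Their median GC content was 59.3%, beside 52.7% over 32851 windows of the same length. CG dinucleotides were at a median of 0.535 of the number given by base content, beside 0.384. The Ager window printed above was poor in CG, with 4 of them and a ratio of 0.163, while the Aqp5 window had 46 and a ratio of 0.974. GGGCGG, read on both strands, was in 7 of 11 windows and in 35.7% of all. TATAAA, read on both strands, was in 1 window, the upstream start of Cav1, and in 13.6% of all. CTCAAG, a core of NKX2-1 sites, was in both Hopx windows and in 15.9% of all. GGAATG, a core of TEAD sites, was in 0 of 11 and in 14.7% of all. A match of letters is a description and not a binding site.

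Antisense genes share exon sequence with Hopx and Rtkn2. Hopxos overlaps Hopx and had 0.90 TPM in replicate 1 and 0.45 TPM in replicate 2, and Gm16212 overlaps Rtkn2 and had 0.12 and 0.58 TPM. Use of strand in counting is not given in the sources used here, so the reads of each pair may not be told apart.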

How the data were processed

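Total RNA over 200 nt, 10 ng per library, from 2 pools of lungs was quantified by the authors. The deposited expected counts are estimated reads per feature; the deposited TPM and FPKM values scale them by length and library. Each transcript's percent of its gene was also deposited, and the deposited interval bounds are a signal on the TPM scale. Per the deposited file descriptions the assembly was mm10 and the annotation M4; program, version and strand use were not given in the sources used here. Depth was 40395850 estimated reads in replicate 1 and 36601054 in replicate 2, of which the 10 genes held 55401 and 43732; intervals cover counting and read assignment only.

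Names and positions came from GENCODE M21 by identifier (42462 of 43346 matched). Expected counts were rounded for TMM scaling (edgeR 4.0.16, R 4.3.3) and DESeq2 1.42.0 size factors. The scaling was also run on simulated counts. Their noise was set in advance and not taken from these libraries, so that run says nothing on the noise here. The libraries were kept as separate replicates, with a chi-square between them of 7.07 per degree of freedom (17798 genes). The genes and lists were chosen with earlier results of these data known, and pairs of genes and transcripts after their values were seen. In each list the highest, second highest and lowest genes, those under 1 TPM and those called apart were eligible to be named; Nkx2-1, Tbx4, Cav3, Sftpb, Pecam1, Rtkn and Emp1 fall outside this rule and were chosen after their values were seen. The lowest gene of the AKAP5 partner list is not reported here.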

Additional observations from a re-analysis of the deposited data

How the results depend on the processing

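No paired analysis was possible because there is 1 group. The summed TPM of the 10 genes was 839.8 on average, and 569.5 as TMM-scaled counts per kilobase and library size. It was 952.7 when rescaled to the Ensembl genes without mitochondrial genes and globins. That rescaling left out all 26345 features that are not Ensembl genes, the spike-ins among them. Their median level, 31.6 TPM, was 17.4 TPM without the caveolins. The number called apart, 0, became 1 (Clic5) with the fold minimum lowered to a log2 ratio of 0.32 and 5 with separate intervals at any fold. From posterior mean TPM the leading transcript held 85.0% in place of 100% of Aqp5 and 92.3% in place of 96.3% of Hopx. For Cav1 it held 80.8% in place of 81.2%. The sums of 569.5 and 952.7 are on other scales, where every gene is multiplied by a common factor per library. They are not a change in single genes. What set the changes in transcript share was not tested. Levels of single genes moved beyond the spread between replicates, 1 SD, in 15 cases and not in 35. Shares of leading transcripts did so in 4 and not in 20. All 15 cases of single genes came from the changes of scale. The cases not moved include all those with 1 replicate left out. With 2 libraries such a value always lies within 1 SD of the mean, so those cases say nothing on stability. The ratio of replicate 1 over replicate 2 for Cav2 was 1.05 without scaling and 0.995 with it, on either side of 1. The order of Cav2 and Emp2 by mean TPM turned without replicate 2, to 77.02 and 78.07 TPM. The median log2 ratio over the 10 genes stayed above 0 under each alternative run. Depth limits Aqp5, whose level rests on 48 and 31 estimated reads, and the upstream Hopx start, which rests on 2.88 and 2.59.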
